A study of Mus musculus with 2 samples.

Results

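The genes described here are 9 of the 32285 genes counted: *Synpo2*, *Prkcd*, *Rgs16*, *Shox2*, *Plekhg1*, *Ntng1*, *Vav3*, *Prkch* and *Zfhx3*. They were picked by symbol, as genes that mark thalamic neurons and whose levels were seen to part between the conditions in these same counts. The values below therefore describe the pattern they were picked for and are no evidence for it. The samples were 1 library of single nuclei from Normal mice and 1 from mice 12 h after subarachnoid haemorrhage (SAH) induced by endovascular perforation. Each library pooled tissue of 3 male mice, aged 6 to 8 weeks by the labels and somewhat older by the study's methods, taken from the hemisphere on the injured side between the medial prefrontal cortex and the central lateral thalamus. The labels call the control mice normal and the study calls its controls sham, so whether the control animals had surgery is not settled. With 1 library per condition no difference has a replicate check. All intervals below are 95% intervals that cover counting error only, not the spread between mice or libraries.

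Thalamic relay neurons are glutamatergic cells that pass sensory, motor and arousal signals to the cortex. They load glutamate with the transporter encoded by *Slc17a6* and hold their identity with the transcription factor encoded by *Tcf7l2*, a nuclear partner of beta-catenin. The 9 genes fall into roles that such a neuron uses for its own identity and wiring. *Shox2* and *Zfhx3* encode homeodomain transcription factors, *Ntng1* encodes netrin-G1, an adhesion protein of thalamocortical axons, and *Synpo2* encodes an actin-binding protein. *Plekhg1* and *Vav3* encode exchange factors that switch on small GTPases. *Prkcd* and *Prkch* encode the delta and eta isoforms of protein kinase C, which respond to diacylglycerol and not to calcium, and *Rgs16* encodes a protein that shortens signalling by G protein alpha subunits.

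Of the 9 genes, 8 had a promoter window in the RefSeq table for GRCm38.p6, in 11 windows because *Vav3* had 3 and *Prkcd* 2. The 250 bases before the first transcript start are printed for the 3 genes with the lowest ratios described below and for the gene with the highest, since the nuclei were picked on *Tcf7l2*, whose protein binds sites with the core TCAAAG. Capitals mark TCAAAG or its reverse complement CTTTGA, searched on both strands.
Prkcd, chr14:30626209-30626458, minus strand: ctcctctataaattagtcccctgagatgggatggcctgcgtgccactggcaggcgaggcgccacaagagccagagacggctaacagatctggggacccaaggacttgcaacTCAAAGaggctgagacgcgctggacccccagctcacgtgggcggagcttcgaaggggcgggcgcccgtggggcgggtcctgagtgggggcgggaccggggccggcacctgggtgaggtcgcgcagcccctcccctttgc
Rgs16, chr1:153740103-153740352, plus strand: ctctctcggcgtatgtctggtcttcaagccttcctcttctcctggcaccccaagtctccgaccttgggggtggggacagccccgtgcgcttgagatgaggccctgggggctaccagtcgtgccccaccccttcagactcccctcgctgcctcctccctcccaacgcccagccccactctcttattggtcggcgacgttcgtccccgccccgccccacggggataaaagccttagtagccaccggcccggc
Shox2, chr3:66981772-66982021, minus strand: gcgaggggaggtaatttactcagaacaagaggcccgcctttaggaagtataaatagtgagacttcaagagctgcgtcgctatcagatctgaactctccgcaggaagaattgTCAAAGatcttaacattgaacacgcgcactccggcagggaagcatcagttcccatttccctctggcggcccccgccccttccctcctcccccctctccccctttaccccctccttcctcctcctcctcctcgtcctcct
Synpo2, chr3:123236150-123236399, minus strand: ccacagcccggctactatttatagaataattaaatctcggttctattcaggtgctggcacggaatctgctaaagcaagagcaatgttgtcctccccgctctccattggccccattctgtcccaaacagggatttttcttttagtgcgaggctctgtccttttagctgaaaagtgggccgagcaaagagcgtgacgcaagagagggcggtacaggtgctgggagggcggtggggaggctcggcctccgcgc
The core began 139 bases before the start in both *Prkcd* and *Shox2*, and these letters were not in the windows of *Rgs16* and *Synpo2*. Over all windows of the 9 genes, 3 of 11 held the core, the remaining one in *Zfhx3*, beside 13.8% of the 32851 promoter windows of the table. The longer form ATCAAAG was in 0 of the 11 windows and in 3.21% of all windows. These matches describe letters and not binding.

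The genes differ widely in extent on the genome (GENCODE annotation of GRCm38, the build of the counts). *Rgs16* (ENSMUSG00000026475, chr1:153740349-153745468, plus strand) spans 5.12 kb, *Shox2* (ENSMUSG00000027833, chr3:66971727-66981771, minus strand) 10.0 kb and *Prkcd* (ENSMUSG00000021948, chr14:30595354-30626210, minus strand) 30.9 kb. *Synpo2* (ENSMUSG00000050315, chr3:123076519-123236149, minus strand) spans 159.6 kb, *Prkch* (ENSMUSG00000021108, chr12:73584796-73778185, plus strand) 193.4 kb and *Plekhg1* (ENSMUSG00000040624, chr10:3740364-3967303, plus strand) 226.9 kb. *Vav3* (ENSMUSG00000033721, chr3:109340653-109685698, plus strand, 345.0 kb) and *Ntng1* (ENSMUSG00000059857, chr3:109780040-110144011, minus strand, 364.0 kb) are neighbours that end towards each other, with 94.3 kb and 0 annotated genes between them. *Zfhx3* (ENSMUSG00000038872, chr8:107942644-108961630, plus strand) spans 1019 kb. On the opposite strand, *Shox2* overlaps *Rsrc1* and *Rgs16* overlaps *Gm28513*, and *Zfhx3* overlaps *Gm39244*, *Lncbate1* and *Gm20686*. Whether strand was used in the counting is not given in the sources used here, so reads of such partners may be mixed.

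Nuclei were taken as thalamic where they held at least 2 unique molecular identifiers (UMIs, each a counted RNA molecule) of *Slc17a6* and at least 2 of *Tcf7l2*. Levels are given as CPM, the UMIs of a gene scaled to a fixed total of UMIs in the class, so that libraries of unequal size can be set side by side. This gate held 396 of 10955 Normal nuclei and 703 of 15536 SAH nuclei, with 6411187 and 11447963 UMIs and medians of 14502 and 15115 per nucleus. The thalamic markers *Rora*, *Plcb4*, *Cacna1g*, *Amotl1* and *Lef1* were well counted in both libraries, while *Gbx2* had only 18 and 19 UMIs. With *Gbx2* these markers summed to 4128 CPM in Normal and 3775 in SAH. Most of that sum was *Rora*, at 2527 CPM in Normal and 2526 in SAH. *Lef1* stood at 572.0 and 301.4, *Cacna1g* at 122.0 and 86.0, *Plcb4* at 758.5 and 707.0 and *Amotl1* at 145.2 and 152.5. The summed habenula markers *Tac2*, *Pou4f1*, *Gpr151* and *Chrna3* had 14 and 53 UMIs, most of them from *Tac2* (8 and 39). Markers of other neurons, *Slc17a7*, *Gad1* and *Gad2*, had 278 and 381 UMIs, and 53 Normal and 72 SAH nuclei of the gate held at least 2 UMIs of *Slc17a7* or of *Gad1* and *Gad2* together. Of oligodendrocyte markers, *Mog* had 24 and 38 UMIs, *Mag* 23 and 30 and *Mobp* 13 and 64, and of vascular markers *Flt1* had 5 and 8, *Pecam1* 11 and 18, *Pdgfrb* 8 and 14, and *Cldn5* and *Vtn* 0 in both. Of microglial markers, *Csf1r* had 33 and 26 UMIs, *Cx3cr1* 56 and 100 and *P2ry12* 378 and 996. The gate gene *Tcf7l2* itself was lower in SAH, at 673.4 CPM in Normal and 432.4 in SAH (log2 ratio -0.64), and *Slc17a6* stood at 325.1 and 284.6 (log2 ratio -0.19). The part of these values in the results below was not tested.

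In the gate, the 9 genes did not move as a block. *Rgs16*, *Prkcd* and *Shox2* were lower in SAH, and *Synpo2* and *Zfhx3* were somewhat higher. *Ntng1* and *Vav3* were slightly lower, and *Plekhg1* and *Prkch* lay close to their Normal levels. Past a 1.5-fold difference, 0 of the 9 were higher and 2 were lower, *Rgs16* and *Prkcd*. Of all 12588 genes that reached 50 UMIs in the gate, 9.20% were 1.5-fold higher in SAH and 14.4% were 1.5-fold lower, and the median log2 ratio was -0.10. Since the genes were chosen on this contrast, nothing is read from their count against that background.

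*Prkcd*, the kinase much used to outline sensory relay nuclei, had 1471 UMIs in Normal and 1460 in SAH although the SAH gate held far more nuclei. Its level was 229.4 CPM (217.9 to 241.5) in Normal and 127.5 (121.1 to 134.2) in SAH, a log2 ratio of -0.85 (-0.95 to -0.74). *Rgs16*, the G protein regulator, was sparse, with 94 UMIs in Normal and 56 in SAH. Its level was 14.7 CPM (11.8 to 17.9) against 4.89 (3.70 to 6.35), a log2 ratio of -1.58 (-2.09 to -1.09), the lowest of the 9. *Shox2*, the homeodomain factor, had 185 and 222 UMIs, at 28.9 CPM (24.8 to 33.3) and 19.4 (16.9 to 22.1). Its log2 ratio of -0.57 (-0.86 to -0.28) ended just short of the 1.5-fold line at -0.58. The intervals of the 2 libraries did not overlap for these 3 genes, but nor did they for *Synpo2*, *Zfhx3*, *Ntng1* and *Vav3* below. Lack of overlap therefore does not set the 3 genes apart, and its share over all genes was not counted.

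*Synpo2*, the actin-binding protein gene, went the other way, from 830.3 CPM (808.1 to 852.9) in Normal to 1005 (986.4 to 1023) in SAH, a log2 ratio of 0.28 (0.23 to 0.32). *Zfhx3*, the larger of the homeodomain genes, stood at 869.0 and 965.6 CPM, a log2 ratio of 0.15 (0.11 to 0.20). *Plekhg1* was level, at 736.1 and 729.2 CPM, with a log2 ratio of -0.01 (-0.07 to 0.04). *Prkch*, the other protein kinase C gene of the group, was also level, at 138.4 and 131.2 CPM, with a log2 ratio of -0.08 (-0.20 to 0.04). The neighbours *Ntng1* and *Vav3* were both slightly lower in SAH, with log2 ratios of -0.20 (-0.22 to -0.17) and -0.19 (-0.23 to -0.15). *Ntng1* went from 4342 to 3791 CPM and *Vav3* from 1312 to 1152.

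**Figure D1:**
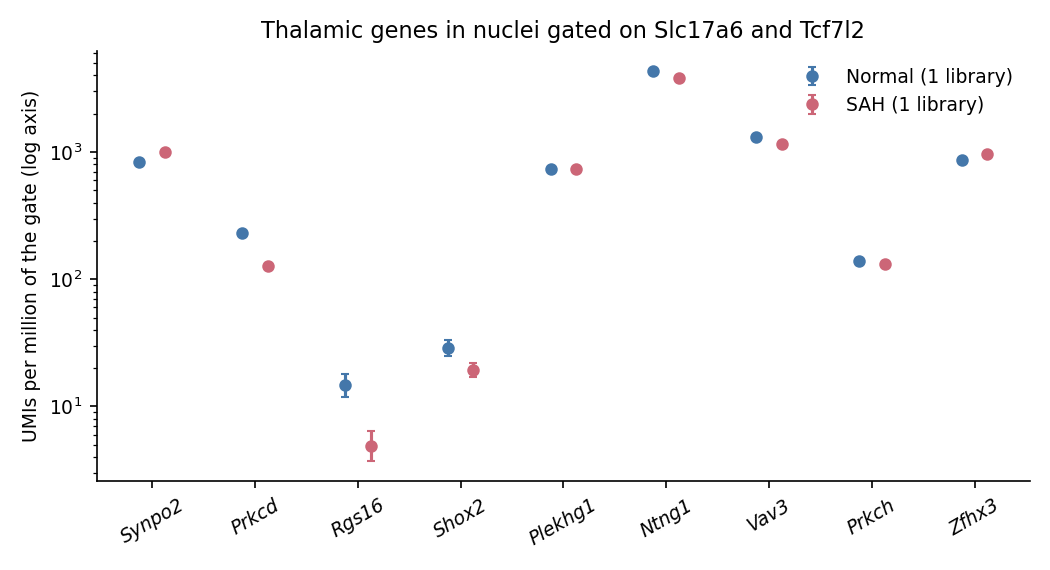
Level in CPM (log axis) for the 9 thalamic genes in the Normal and the SAH library, with points for the single library of each condition and bars for the 95% counting interval. The points of *Rgs16* (14.7 and 4.89), *Prkcd* (229.4 and 127.5) and *Shox2* (28.9 and 19.4) are clearly apart, and those of *Plekhg1* and *Prkch* lie side by side.

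Ratios between the genes put the values above in another form. They come from the same UMIs and add no further evidence. For every 100 UMIs of *Synpo2*, the Normal gate held 27.6 UMIs of *Prkcd* and the SAH gate 12.7. For *Shox2* these values were 3.48 and 1.93, and for *Rgs16* 1.77 and 0.487. The 2 kinase genes also parted, with 165.8 UMIs of *Prkcd* per 100 of *Prkch* in Normal and 97.2 in SAH. In contrast, the ratio of the neighbours summed over the gate was alike, with 30.2 UMIs of *Vav3* per 100 of *Ntng1* in Normal and 30.4 in SAH. Within single sub-clusters of the gate and in classes outside it, described below, the neighbours did not always move alike.

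Counted by nucleus, *Prkcd* differed in its amount more clearly than in the share of nuclei in which it was found. At least 1 UMI of *Prkcd* was found in 47.7% of Normal gate nuclei (42.7 to 52.8) and 43.1% of SAH gate nuclei (39.4 to 46.9), and these intervals overlapped. The nucleus at the 90th percentile held 12 UMIs in Normal and 7 in SAH, and the highest 37 and 19. *Rgs16* differed in the share at full depth, with a UMI in 19.7% (15.9 to 24.0) of Normal and 6.97% (5.20 to 9.11) of SAH nuclei. *Shox2* did likewise, with 32.3% (27.7 to 37.2) and 22.9% (19.8 to 26.2). Nuclei that held them had a mean of only 1.21 and 1.14 UMIs of *Rgs16* and 1.45 and 1.38 of *Shox2*. With so few UMIs per nucleus, level and share say nearly the same, and fewer positive nuclei cannot be told from a lower level in each. The other genes were seen in like shares of nuclei, for example 95.7% and 97.7% for *Ntng1* and 66.7% and 67.3% for *Prkch*. Each nucleus was also thinned to 5000 UMIs, which left out 13 Normal and 7 SAH nuclei. The shares for *Prkcd* were then 38.4% (33.5 to 43.5) and 29.7% (26.4 to 33.3), without overlap. They were 5.74% and 1.87% for *Rgs16* and 14.4% and 8.62% for *Shox2*. The 3 differences thus kept their direction at equal depth. A lower amount of *Prkcd* per nucleus also lowers the share found after thinning, so its thinned shares do not show that fewer nuclei held it. In oligodendrocyte-gated nuclei, which should lack these 3 genes and had median depths of 1889.5 and 2244 UMIs, the unthinned shares were 0.761% and 0.958% for *Prkcd*, 0.234% and 0.180% for *Rgs16*, and 0.176% and 0.329% for *Shox2*.

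Gate nuclei with more *Synpo2* also held more *Prkcd*, and the difference between the libraries was present at each level. In nuclei with 30 or more UMIs of *Synpo2* (52 Normal, 127 SAH), *Prkcd* stood at 445.7 CPM in Normal and 253.8 in SAH, a log2 ratio of -0.81 (-0.96 to -0.66). With 15 to 29 UMIs of *Synpo2* (84 and 190 nuclei) it stood at 310.7 and 156.8, and with 5 to 14 (117 and 207 nuclei) at 152.1 and 48.6. Below 5 UMIs of *Synpo2* (143 and 179 nuclei) only 22 and 11 UMIs of *Prkcd* were left. *Synpo2* was itself higher in SAH, with a median of 9 UMIs per nucleus in Normal and 13 in SAH. Nuclei in a group by *Synpo2* need therefore not be the same kind in both libraries. Grouping by *Plekhg1*, which was level between the libraries, gave log2 ratios of -0.89 (-1.05 to -0.73) in nuclei with 30 or more UMIs, -0.63 with 15 to 29 and -1.07 with 5 to 14. The lowest group held 28 and 37 UMIs of *Prkcd*, and its interval reached 0 (log2 ratio -0.46, -1.20 to 0.31).

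**Figure D2:**
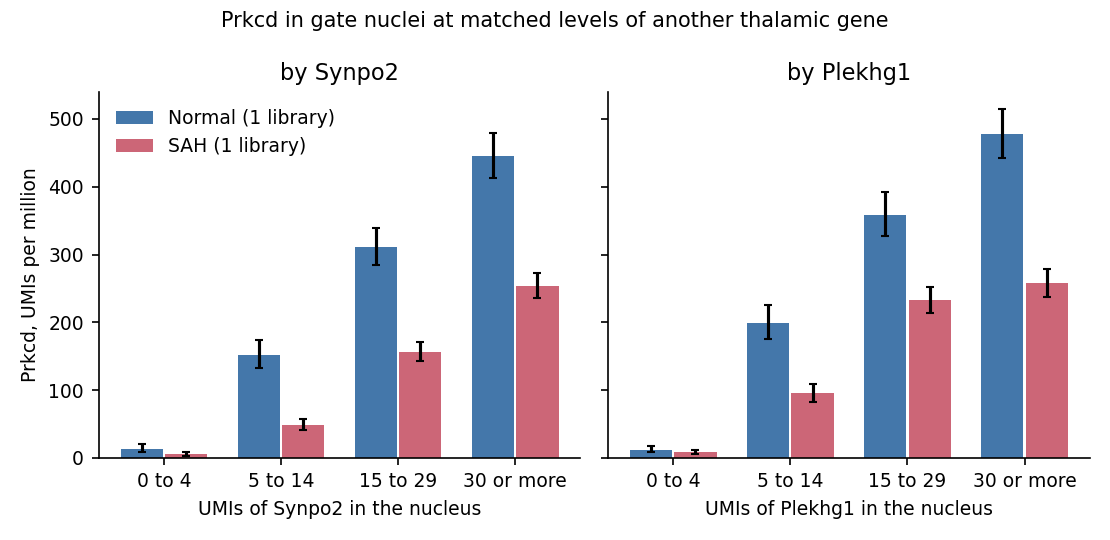
Level of *Prkcd* (in CPM, the UMIs scaled to a fixed total) in gate nuclei grouped by their UMIs of *Synpo2* (left) or of *Plekhg1* (right), with bars for the single Normal and SAH library and error bars for the 95% counting interval. In each group the SAH bar is the lower one, from 253.8 against 445.7 at 30 or more UMIs of *Synpo2* down to the group of 0 to 4 UMIs, where few molecules were counted.

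Nuclei of the gate were divided by clustering with the 9 genes and the 2 gate genes left out of the features, which gave 14 sub-clusters. Only the largest, led by *Reln*, *Klhl1* and *Erbb4* (57 Normal and 113 SAH nuclei), had 50 nuclei in each library. Its nuclei passed the gate, yet they held little of most of the 9 genes, with *Synpo2* at 19.3 and 35.3 CPM and *Prkcd* at 5.51 and 2.82, and they made up 14.4% of the Normal and 16.1% of the SAH gate. *Zfhx3* and *Ntng1* were present in it, at 577.4 and 683.5 and at 1310 and 1279 CPM. The limit was therefore lowered, after the clusters had been seen, to 20 nuclei in each library, which 10 sub-clusters met.

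Across those 10 sub-clusters *Synpo2* was higher in SAH in 10 of 10, with log2 ratios of 0.07 to 0.87 and intervals above 0 in 7. *Prkcd* was lower in 7 of the 7 sub-clusters with at least 20 of its UMIs in both libraries together, with log2 ratios of -2.16 to -0.22 and intervals below 0 in 6. The level of *Prkcd* itself ran from 0 to 750.4 CPM over the sub-clusters in Normal and from 2.82 to 378.0 in SAH. It was highest in both libraries in the sub-cluster led by *Adamts19*, *Ttn* and *Dab2* (364 and 231 UMIs, log2 ratio -0.99), followed by the one led by *Gm35696*, *Adgrf5* and *Abhd12b* (528.4 and 304.8 CPM, log2 ratio -0.79). In the sub-cluster led by *Nox4*, *Fgf10* and *Cntn5*, *Prkcd* hardly differed (112.1 and 96.3 CPM, log2 ratio -0.22, -0.68 to 0.24), whereas *Synpo2* went from 742.4 to 1102 (log2 ratio 0.57). The sub-cluster led by *Glis3*, *Syt10* and *Nptxr* held 0 UMIs of *Prkcd* in Normal and 10 in SAH. Of the smaller sub-clusters left out, the one led by *Ccdc192* and *Lypd6b* (18 and 34 nuclei) had *Prkcd* at 57.4 and 71.2 CPM (16 and 39 UMIs), with an interval that spanned 0.

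*Shox2* was lower in 7 of 9 sub-clusters with enough UMIs, with intervals below 0 in 2, and *Rgs16* in both of the 2. *Ntng1* was lower in 9 of 10 and *Vav3* in 8 of 10, with log2 ratios no lower than -0.49 and -0.29. *Zfhx3* was higher in 8 of 10, with log2 ratios of -0.24 to 0.36. *Plekhg1* and *Prkch* went both ways, *Plekhg1* lower in 4 and higher in 6 and *Prkch* in 5 and 5. The interval of *Prkch* lay below 0 in 3 sub-clusters and above 0 in 1, and that of *Plekhg1* below 0 in 1 and above 0 in 3. These intervals cover counting error only and make no allowance for the number of sub-clusters looked at. *Prkch* went from 229.7 to 154.7 CPM in the sub-cluster led by *Rxfp1* and *Pth2r* and from 169.4 to 232.7 in the one led by *Gm35696*. *Tcf7l2* was lower in SAH in each of the 10 sub-clusters, with log2 ratios of -0.97 to -0.21.

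**Figure D3:**
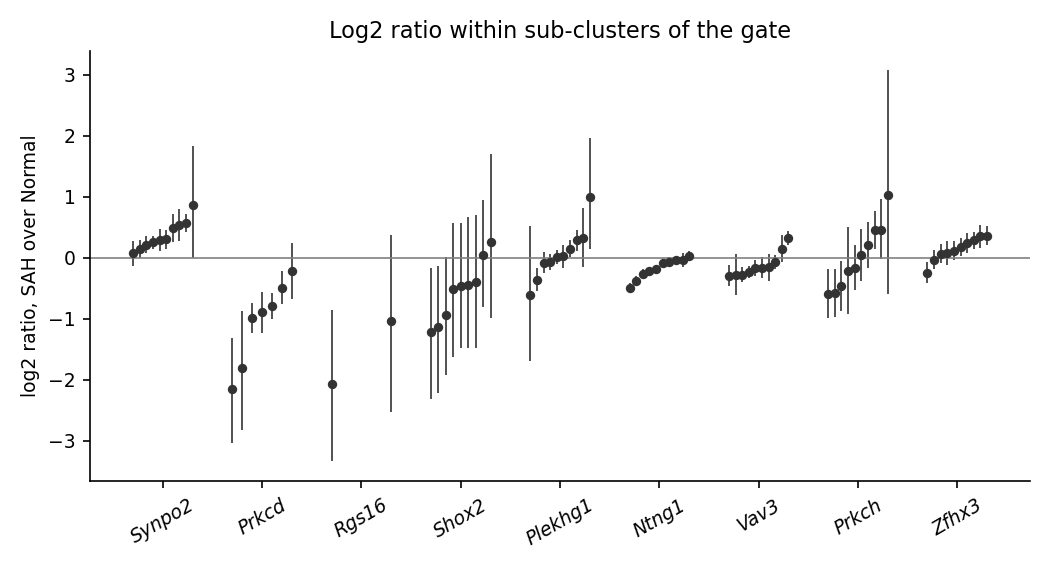
Log2 ratio, SAH over Normal, of the 9 genes within sub-clusters of the gate that held at least 20 nuclei in each library and at least 20 UMIs of the gene, with 1 point per sub-cluster in order of its value and bars for the 95% counting interval. The points of *Synpo2* lie above 0 (0.07 to 0.87), those of *Prkcd* below 0 (-2.16 to -0.22), and those of *Prkch* on both sides.

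Single marker genes divided the gate in another way. *Calb2*, which encodes calretinin and marks midline thalamic neurons, was present in 65 Normal and 78 SAH nuclei. There *Prkcd* was already low in Normal, at 62.9 CPM against 258.6 in nuclei without *Calb2*, and in SAH it stood at 32.9 and 139.1, log2 ratios of -0.94 (-1.55 to -0.34) and -0.89. *Ntng1* and *Vav3* turned direction between these subsets. With *Calb2* they were higher in SAH, with log2 ratios of 0.11 (0.05 to 0.17) and 0.27 (0.13 to 0.40), and without it they were lower, at -0.24 and -0.25.

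The markers used for these splits were themselves lower in SAH over the gate, with log2 ratios of -0.41 (-0.81 to 0.01) for *Calb2*, -0.56 for *Necab1* (390.9 and 265.2 CPM) and -1.24 for *Tnnt1*, so nuclei on one side of a split need not be the same kind in both libraries. *Necab1*, a gene for a neuronal calcium-binding protein, was present in 257 Normal and 414 SAH nuclei. *Ntng1* was nearly level with it (log2 ratio -0.04) and lower without it (-0.44, from 4371 to 3225 CPM). *Prkch* had a log2 ratio of -0.18 (-0.32 to -0.03) with *Necab1* and of 0.36 (0.12 to 0.61) without it. *Prkcd* was lower on both sides, by log2 ratios of -0.72 and -1.07, and *Synpo2* was higher on both, by 0.36 and 0.12. Only 46 Normal and 39 SAH nuclei held *Tnnt1*, a marker of relay nuclei, which was under the limit of 50. In the 350 and 664 nuclei without it, the log2 ratios were -0.69 for *Prkcd*, -1.55 for *Rgs16* and 0.36 for *Synpo2*.

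Outside the gate, the 9 genes were measured in 9 classes of neurons, set by UMIs of marker genes, and in oligodendrocyte- and microglia-gated nuclei. Set against all other neurons together, each gene was higher in the gate, by 106.5-fold for *Shox2*, 77.3-fold for *Synpo2*, 68.3-fold for *Plekhg1* and 47.2-fold for *Prkcd* in Normal, but by only 11.9-fold for *Ntng1* and 5.25-fold for *Zfhx3*. In SAH these were 39.5, 63.4, 53.0, 29.6, 11.5 and 5.73. The name of thalamic gene holds least for *Zfhx3*, which in Normal was higher in microglia-gated nuclei (1117 CPM) than in the gate (869.0), and of whose UMIs 24.2% in Normal and 32.1% in SAH lay in the gate. *Plekhg1* was also high in oligodendrocyte-gated nuclei, at 449.4 CPM in Normal and 305.3 in SAH, a log2 ratio of -0.56 (-0.65 to -0.47) that it did not show in the gate.

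Among cortical-type neurons with *Slc17a7*, *Ntng1* was highest after the gate in the small class with *Prox1* (1082 and 843.0 CPM, 47 and 65 nuclei) and next in the class with *Rorb* (785.2 and 569.6). It was lower in SAH in the classes with *Prox1* (log2 ratio -0.36), *Foxp2* (-0.62), *Rorb* (-0.46) and *Cux2* (-0.40), all with intervals below 0, and level in the rest (-0.02). *Zfhx3* was scarce in the *Prox1* class, with 32 and 129 UMIs (log2 ratio 1.48, 0.91 to 2.08). Only 2 Normal and 5 SAH nuclei of that class held 5 or more UMIs of *Zfhx3*, and as many held 5 or more of *Synpo2*. In the *Foxp2* class, *Synpo2* was 21.5 CPM in Normal and 13.2 in SAH, a log2 ratio of -0.70 (-1.07 to -0.33), and *Prkcd* had 48 and 22 UMIs (log2 ratio -1.67). Those UMIs sat in few nuclei, as 5.08% and 4.46% of the class held *Synpo2* at all. *Vav3* was higher in SAH in all 3 GABA classes, from 37.1 to 64.3 CPM in interneurons (log2 ratio 0.79, 0.62 to 0.96), from 45.7 to 79.2 in striatal neurons (0.79) and in the rest (246 and 541 UMIs, 0.60), in contrast to the gate. In the same classes *Zfhx3*, which marks many GABA neurons, stood at 247.2 and 269.6, 392.6 and 400.2, and 428.6 and 338.9 CPM. *Rgs16* and *Shox2* had fewer than 50 UMIs in each class outside the gate, so no ratio is given for them.

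In microglia-gated nuclei *Prkcd* stood at 146.1 CPM in Normal and 57.3 in SAH (log2 ratio -1.35) and *Zfhx3* at 1117 and 585.8 (-0.93). In SAH 24 nuclei of this class held 5 or more UMIs of *Synpo2*, a neuronal gene here, and 3 in Normal did. Limited, after this was seen, to nuclei with at least 2 UMIs of *Csf1r* and *Cx3cr1* together (888 and 1087 nuclei), the log2 ratios were -0.66 (-0.90 to -0.42) for *Prkcd* and -0.23 (-0.31 to -0.15) for *Zfhx3*. *Synpo2* was still unequal in that set, with 4 UMIs in Normal and 109 in SAH. With *Ntng1* under 2 UMIs as well (876 and 1054 nuclei), *Prkcd* stood at 203.1 and 132.1 CPM (-0.62, -0.86 to -0.38). *Zfhx3* stood at 1535 and 1463 CPM there (-0.07, -0.15 to 0.01), so its difference in microglia-gated nuclei was not seen in the stricter set.

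**Figure D4:**
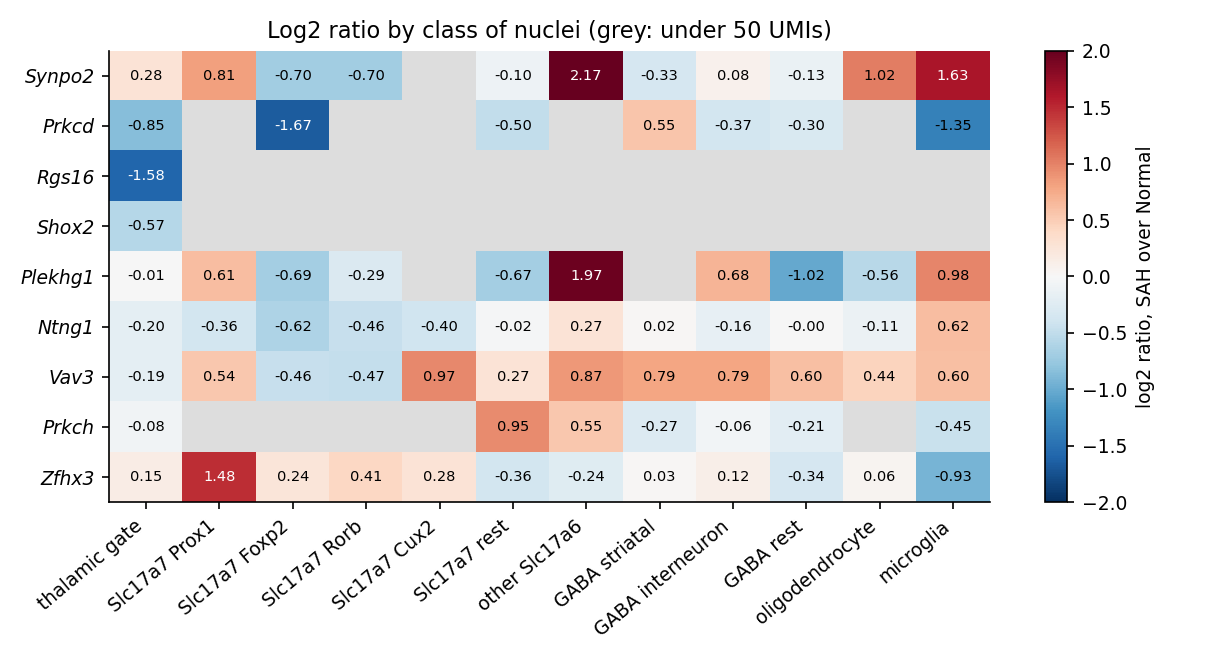
Log2 ratio, SAH over Normal, of each gene (rows) in each class of nuclei (columns), with colour from blue (lower in SAH) to red (higher), capped at 2 on each side, and grey where both libraries together held under 50 UMIs. *Prkcd* is blue in the gate (-0.85), *Vav3* is red in the 3 GABA columns (0.79, 0.79 and 0.60), and *Synpo2* and *Plekhg1* are deepest red in the column of other *Slc17a6* neurons (2.17 and 1.97).

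Large ratios of *Synpo2* and *Plekhg1* were found next to the gate. In other *Slc17a6* neurons, which held at most 1 UMI of *Tcf7l2*, *Synpo2* had 83 UMIs in Normal and 487 in SAH (16.4 and 73.5 CPM, log2 ratio 2.17, 1.83 to 2.52). *Plekhg1* had 60 and 307 UMIs (log2 ratio 1.97, 1.57 to 2.39). These molecules lay in few nuclei. In SAH 35 of 614 nuclei held 5 or more UMIs of *Synpo2* and carried 79.3% of it, against 2 of 515 nuclei and 15.7% in Normal. Without those nuclei *Synpo2* stood at 13.9 and 16.3 CPM. Nuclei at the edge of the gate showed the same. With exactly 2 UMIs of *Tcf7l2*, just inside, 27 Normal and 70 SAH nuclei held *Synpo2* at 162.5 and 661.2 CPM and *Plekhg1* at 117.8 and 354.2. With exactly 1 UMI, just outside, 43 and 70 nuclei held *Synpo2* at 80.2 and 358.0 and *Plekhg1* at 57.3 and 237.9. *Prkcd*, lower in SAH over the whole gate, had few UMIs at the edge and was not lower there, with 6 and 31 UMIs just inside (log2 ratio 0.62, -0.66 to 2.17) and 2 and 23 just outside (2.65, 0.63 to 5.78). The class of other *Slc17a6* neurons held 11 and 31 UMIs of *Prkcd*. That class was also limited in *Slc17a7*, *Gad1* and *Gad2*, which the nuclei at the edge were not, so its UMIs need not include theirs. *Vav3* (0.72 inside, 0.95 outside) and *Ntng1* (0.64 and 0.35) were higher in SAH at the edge too, in contrast to the whole gate. Nuclei rich in *Synpo2* and *Plekhg1* but low in *Tcf7l2* were thus counted mostly in the SAH library. With the gate set on *Slc17a6* and on the summed UMIs of *Rora*, *Plcb4*, *Amotl1*, *Cacna1g* and *Gbx2* (at least 20) in place of *Tcf7l2*, a choice made after seeing this (521 and 900 nuclei), the log2 ratios were 0.49 for *Synpo2*, 0.22 for *Plekhg1* and -0.63 for *Prkcd*.

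The 3 genes with the lowest ratios are also the 3 shortest of the 9. Over all genes compared in the gate the median log2 ratio went with length, from -0.39 for genes under 10 kb (2372 genes) through -0.20 (10 to 30 kb), -0.06 (30 to 100 kb) and 0.08 (100 to 300 kb) to 0.16 for those of 300 kb and more (563 genes). Of the shortest genes 37.2% were 1.5-fold lower in SAH, and of the longest 1.07%. Set against the middle value of the 500 genes closest in length, *Rgs16* stood at -1.19, *Prkcd* at -0.76 and *Shox2* at -0.27 on the log2 scale. *Rgs16* and *Prkcd* thus lay more than 1.5-fold below genes of like length and *Shox2* did not. On that scale *Ntng1* (-0.36) and *Vav3* (-0.35) were lower too, *Synpo2* remained higher (0.21) and *Zfhx3* was level (-0.02). Over the 9 genes Spearman's rho of log2 ratio and length was 0.58, a description of 9 genes from the same libraries.

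**Figure D5:**
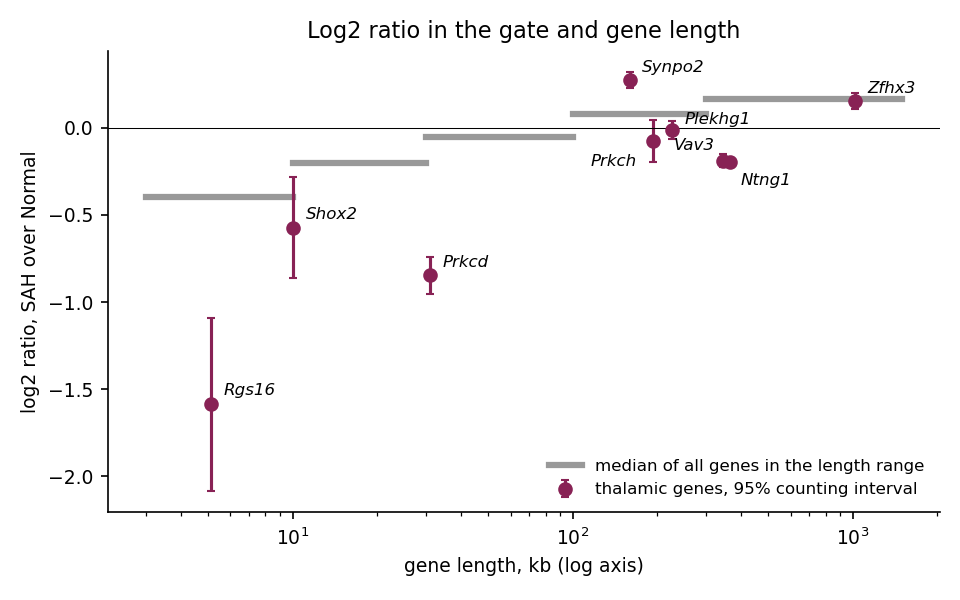
Log2 ratio, SAH over Normal, in the gate against gene length in kb (log axis) for the 9 genes, with bars for the 95% counting interval and grey lines at the median of all genes in each range of length. *Prkcd* (-0.85 at 30.9 kb) and *Rgs16* (-1.58 at 5.12 kb) lie far below the grey line of their range and *Synpo2* (0.28) above it.

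A list of 30 other thalamic genes was read in the same gate. Of the 29 with at least 50 UMIs, 0 were past 1.5-fold higher in SAH and 10 were past 1.5-fold lower, beside 9.20% and 14.4% of all genes tested. The median log2 ratio of the list was -0.28, beside -0.10 over all genes tested. The list is mixed in length, and the share of lower genes differed with length as given above. It was also chosen with earlier results of these data known, and it holds the gate genes *Tcf7l2* and *Slc17a6*. Nothing is therefore read from its counts against all genes. Among the lower ones were transcription factors, with *Sox2* at a log2 ratio of -1.22 (34 and 26 UMIs), *Nr2f2* at -1.04, *Lef1*, a partner of beta-catenin like *Tcf7l2*, at -0.92 (572.0 and 301.4 CPM), and *Etv1* at -0.91. There were also *Tnnt1*, a troponin gene (-1.24, 62 and 47 UMIs), *Ramp3*, a receptor accessory gene (-0.86), *Hcn4*, a pacemaker channel gene (-0.73), and *Tcf7l2*, a gate gene (-0.64). Others of the list were level, among them *Rora* (2527 and 2526 CPM), a nuclear receptor gene. Intervals lay above 0 for 5 genes of the list and below 0 for 18. The highest log2 ratios were 0.39 (0.33 to 0.45) for *Foxp2* and 0.27 (0.14 to 0.41) for *Prox1*.

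Among 27 relatives and partners of the 9 genes, 21 had at least 50 UMIs. Of these, 2 were past 1.5-fold higher and 2 lower, beside 9.20% and 14.4% of all genes tested. Their median log2 ratio was -0.11, beside -0.10 over all genes tested. Nothing is read from these counts. *Lrrc4*, a gene of the family of netrin-G ligands, was higher in SAH (77.1 and 139.9 CPM, log2 ratio 0.86, 0.71 to 1.01), as was *Rgs9*, a relative of *Rgs16* (60 and 176 UMIs, log2 ratio 0.72, 0.29 to 1.16). *Rgs4*, another relative and nearly as short as *Rgs16* (6.17 kb), was lower (89 and 75 UMIs, log2 ratio -1.08, -1.55 to -0.62), as was the kinase gene *Prkcq* (36 and 25 UMIs, log2 ratio -1.36).

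Over 12 classes in the 2 libraries (24 points), the gene outside the 9 with the pattern most like theirs was *Lef1* for both *Synpo2* (Pearson's r of log2 level 0.96) and *Prkcd* (0.85). It was *Abhd12b* for *Shox2* (0.93), *Vangl1* for *Plekhg1* (0.95), *Map3k1* for *Zfhx3* (0.94), *Tafa4* for *Vav3* (0.92), *Sfxn2* for *Rgs16* (0.87) and *9330185C12Rik* for *Ntng1* (0.86) and *Prkch* (0.86). These points share libraries and depth, so r is a description. *Lef1* was like *Prkcd* and unlike *Synpo2* in its own log2 ratio in the gate (-0.92), and *Abhd12b* was lower as well (-1.38, 1031 and 706 UMIs). Within the gate, over nuclei thinned to 5000 UMIs (383 and 696), *Synpo2*, *Plekhg1*, *Vav3* and *Prkcd* went together. Spearman's rho was 0.64 in Normal and 0.66 in SAH for *Synpo2* with *Plekhg1*, and 0.63 and 0.61 for *Synpo2* with *Vav3*. For *Synpo2* with *Prkcd* it was 0.57 and 0.44, and for *Plekhg1* with *Prkcd* 0.62 and 0.54. *Rgs16* and *Shox2* were too sparse for such values to be read.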

How the data were processed

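Nuclei of 1 Normal and 1 SAH library (3 mice pooled in each) were sequenced with 10x Genomics 3' v3.1 chemistry. The authors aligned the reads to mm10 with Cell Ranger (6.1.2 per the file headers, 5.0.0 in the submitters' processing notes), counted intronic reads, and deposited UMI counts per gene and nucleus without normalization, for 12204 Normal and 18209 SAH nuclei with 114970719 and 172604358 UMIs. The libraries shared 78 barcodes.

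The study's limits were applied (300 to 7000 genes, under 10% mitochondrial, under 3% haemoglobin UMIs, under 100000 UMIs), and doublets, taken as the nuclei with the highest Scrublet scores (scanpy 1.11.5; 0.8% for each 1000 nuclei), were left out, as a stand-in for DoubletFinder. A gene's UMIs were added up within each class and divided by the UMIs of all its nuclei (CPM, UMIs scaled to a fixed total). Sums carry an exact Poisson, shares an exact binomial and ratios an exact conditional binomial interval, all at 95%. Only the ratio intervals were tried on simulated data. Those data were drawn with counting error alone, so the trial does not cover spread between nuclei or mice. With 1 library a condition, no test of differential expression could be made. Gate nuclei were integrated by canonical correlation analysis and clustered in Seurat 5.3.0 (R 4.3.3; 2000 features, 25 components, resolution 1.2), and borders of small sub-clusters shift with numerical rounding. Classes outside the gate were disjoint, set by UMIs of *Slc17a7*, *Slc17a6*, *Gad1* and *Gad2* and then of subtype markers. Astrocyte- and vascular-gated nuclei were too few to be used.

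The 9 genes, the gene lists and the markers were chosen with earlier results of these data known. Named genes are the 9, up to 8 of each list past 1.5-fold with at least 50 UMIs, and per gene the gene with the most like pattern among those with at least 200 UMIs. The highest of the thalamic list, *Foxp2* and *Prox1*, were named as well. Alternatives tried were other limits on nuclei, no removal of doublets, other gates, a mean over nuclei, thinning, 2 centrings, other UMI minimums and a resolution of 0.6. Those added after seeing the data were the gate without *Tcf7l2*, the gate without the sub-clusters led by *Reln* and *Meis2*, an equal mix of sub-clusters, a minimum of 20 nuclei, and stricter microglial nuclei. Some marker genes are not reported here.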

Additional observations from a re-analysis of the deposited data

Results flagged for a closer look

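In 15 pairs of gene and class, the log2 ratio (SAH over Normal) had an interval on one side of 0 in the gate and on the opposite side in another class. With 1 library per condition the difference between classes was not tested in any of them. The intervals cover counting error only, and the share of all genes with such opposite intervals was not counted, so nothing is read from the number of pairs. *Vav3*, lower in the gate (-0.19), was higher in SAH in 8 classes, at 0.97 in *Slc17a7* neurons with *Cux2*, 0.54 in those with *Prox1*, 0.27 in the rest of them, 0.87 in other *Slc17a6* neurons, 0.79 in striatal GABA neurons, 0.79 in GABA interneurons, 0.60 in other GABA neurons and 0.60 in microglia-gated nuclei. *Zfhx3*, higher in the gate (0.15), was lower in 4 classes, at -0.36 in the rest of *Slc17a7* neurons, -0.24 in other *Slc17a6* neurons, -0.34 in other GABA neurons and -0.93 in microglia-gated nuclei. *Ntng1*, lower in the gate (-0.20), was higher in other *Slc17a6* neurons (0.27) and in microglia-gated nuclei (0.62). *Synpo2*, higher in the gate (0.28), was lower in *Slc17a7* neurons with *Foxp2* (-0.70). Some of these classes held a few nuclei rich in *Synpo2*. At least 5 of its UMIs were in 35 SAH and 2 Normal nuclei of other *Slc17a6* neurons, and in 5 and 2 of the *Prox1* class. Beside the microglial values, 24 SAH and 3 Normal microglia-gated nuclei held 5 or more UMIs of *Synpo2*. In nuclei of the class with at least 2 UMIs of *Csf1r* and *Cx3cr1* together and under 2 of *Ntng1*, a choice made after seeing the data, the log2 ratio was -0.25 (-0.76 to 0.26) for *Vav3* and -0.07 (-0.15 to 0.01) for *Zfhx3*. For *Ntng1*, which that choice itself limits, it was -0.38 (-0.82 to 0.06). With the limit on *Csf1r* and *Cx3cr1* alone, the log2 ratio was 1.07 (0.78 to 1.37) for *Ntng1*, 0.82 (0.39 to 1.27) for *Vav3* and -0.23 (-0.31 to -0.15) for *Zfhx3*. Those 3 intervals lay on the same side of 0 as in the whole class. That set still held unequal amounts of *Synpo2*, a neuronal gene here, with 4 UMIs in Normal and 109 in SAH (log2 ratio 3.90, 2.50 to 5.80). *Plekhg1* had 12 and 113 UMIs there (log2 ratio 2.37). The part of neuronal RNA in the values of *Ntng1* and *Vav3* was not tested. Since the further limit on *Ntng1* acts on a gene compared here, the stricter set cannot show whether *Ntng1* differed in microglia.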

How the results depend on the processing

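For the gate, 15 alternatives were run. *Prkcd*, *Rgs16* and *Shox2* were lower in SAH in 15 of 15 and *Synpo2* was higher in 15 of 15. The log2 ratio ranged from -1.36 (gate applied after thinning to 5000 UMIs, 168 Normal and 193 SAH nuclei) to -0.63 (gate without *Tcf7l2*) for *Prkcd*, from -2.69 to -1.19 for *Rgs16*, from -0.75 to -0.27 for *Shox2* and from 0.15 to 0.49 for *Synpo2*. The count of genes past 1.5-fold lower was 2 or 3, as *Shox2* crossed the line under 8 settings (among them no removal of doublets, stricter limits and thinning), and the count past 1.5-fold higher was 0 in all 15. *Plekhg1* had no stable direction (7 below 0, 8 above), from -0.28 to 0.22. *Ntng1* and *Vav3* were lower in 14 of 15 and level in the gate without *Tcf7l2* (0.01 and 0.03). *Zfhx3* was higher in 14 and at -0.02 when centred on genes of like length, and *Prkch* ranged from -0.18 to 0.15. At a minimum of 200 UMIs the share of all genes 1.5-fold higher was 5.68%. At a resolution of 0.6, *Synpo2* was higher in 7 of 7 sub-clusters and *Prkcd* lower in 5 of 5. No paired analysis was possible because each condition had 1 library, and for the same reason no library could be left out. Depth limits *Rgs16*, with 94 and 56 UMIs, to the gate itself.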
